A study of Pimephales promelas with 10 samples.

Results

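The 200 brightest probes of cultured fathead minnow testis were described here, out of 15208 probes that each array carried in a single spot. They were chosen on the control arrays alone, as the probes with the highest mean of log2 processed signal minus the array's 75th percentile of that signal. That scaled value is called the level below, and a level of 1 is a signal 2-fold above the 75th percentile of the array. The members are 1.32% of the probes. Each of the 200 exceeded background clearly on all 10 arrays by the scanner's flag, and none was saturated on any of them. Because control levels chose the members, those levels are given as a description, with no test. Brightness is the signal of a spot. It does not order transcripts by amount, since probes differ in how well they bind, and each statement on order below is about spots.

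The arrays came from explants of Pimephales promelas testis kept in culture for 12 h, a fish used widely in tests of chemicals that act through hormones. A first group of 4 explant samples was given 1e-06 M progesterone, with the title numbers 4, 5, 7 and 8. The 6 control samples had the numbers 2, 4, 5, 7, 8 and 10, and what they received in place of progesterone is not stated in the labels. Neither the age of the fish nor whether explants of different numbers came from different fish is stated, so each p-value weighs a difference against a spread between samples that may be technical. Total RNA was labelled with the dye Cy3 and read with 1 colour per array.

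Testis tissue holds germ cells at every stage of sperm formation, the Sertoli cells that carry them, and the Leydig cells that make steroid hormones. Progesterone is a precursor of androgens and of the progestins that act in sperm maturation in bony fish. In most tissues a small number of genes, among them those for ribosomal proteins, translation factors and the mitochondrial genome, supplies a large part of the messenger RNA. The files name each probe by a contig of an assembly or by a sequence record, with no gene, and 0 of the 15208 identifiers matched the RefSeq gene table of the species. The members can therefore not be named as genes, their roles cannot be given, and the labelled tissue could not be checked against its markers. In explants, fewer cells of a type and less RNA per cell cannot be told apart.

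The arrays differed in brightness before scaling. Their 75th percentile of processed signal ran from 1382 to 3927 intensity units, a 2.84-fold range, and 82.6% to 95.2% of the probes were well above background. The arrays lay on 4 slides. Progesterone 5 and 8 lay on slide 1 beside control 8, and progesterone 4 and 7 on slide 3 beside controls 2 and 7. Only control 10 was on slide 2, and only controls 4 and 5 on slide 4. No array was left out of the main values.

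The brightest probe was UF_Ppr_AF_109972, for contig FJU_SB_30.51.C2, with a control level of 7.90 ± 0.60 (SD, n = 6), which is 238-fold the signal at the 75th percentile. It ranked 1st on all 10 arrays. Its level on the control arrays was 7.09 at the lowest, 8.04 at the median and 8.76 at the highest, and on progesterone arrays 4, 5, 7 and 8 it was 8.37, 7.59, 7.58 and 7.54. The groups overlapped fully, with both extremes on control arrays. Probes UF_Ppr_AF_116431 (7.58 ± 0.49) and UF_Ppr_AF_113600 (7.49 ± 0.47; both SD, n = 6) followed, and neither ranked below 8th on any array. The next 7 were UF_Ppr_AF_117414, UF_Ppr_AF_117718, UF_Ppr_AF_117519, UF_Ppr_AF_109983, UF_Ppr_AF_103403, UF_Ppr_AF_109426 and UF_Ppr_AF_106077, with control levels from 7.46 down to 7.20. All 10 stayed among the 25 brightest probes of every array.

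The 50th member had a control level of 6.64, the 100th had 5.50 and the 200th had 4.41, while the median over all probes was -3.06. The brightest member was 11.2-fold above the 200th. No gap marks the end of the list. The 3 members just inside it were UF_Ppr_AF_114935 (4.42), UF_Ppr_AF_111527 (4.41) and UF_Ppr_AF_106386 (4.41), and the 3 probes just outside were UF_Ppr_AF_103171 (4.40), UF_Ppr_AF_103334 (4.39) and UF_Ppr_AF_105465 (4.39).

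What the members share beyond brightness can be read only from their identifiers. Of the 200, 193 (96.5%) stood for assembly contigs and 7 (3.5%) for sequence records, against 78.0% and 21.8% of all probes. The 200 probes ranked next, places 201 to 400, had a like make-up, with 97.5% contigs. Contigs with SB in the name made up 9.0% of the members, 6.0% of the next 200 and 4.05% of all probes. The letters rc occurred in 9.0% of member names, 12.5% of the next 200 and 21.4% of all probes. The meaning of rc and SB is not stated in the files. These shares were not tested.

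A bright probe did not imply that other probes of the same contig were bright. For 5 members the array carried another probe for the same contig, whose identifier ends in ms. The member UF_Ppr_AF_116431 had a control level of 7.58 and its partner -2.21. The remaining 4 pairs were UF_Ppr_AF_109733 with 6.84 against -1.73, UF_Ppr_AF_115837 with 6.32 against 0.35, UF_Ppr_AF_104891 with 4.95 against -0.10 and UF_Ppr_AF_106746 with 4.51 against -2.62. Every partner was well above background on all 10 arrays, yet none ranked above place 3293. Members were chosen for brightness, so a dimmer partner is what the choice favours. Over all 709 such pairs on the array, the plain probe was the brighter in 547 (77.2%), by a median of 3.63. The meaning of the ms ending is not stated in the files. Contigs of 1 assembly cluster also spanned a range of levels. There were 52 members (26.0%) in a cluster with another probe, near the 24.6% of all probes. In their clusters 84 non-member probes were counted, which leaves out the 5 ms partners above and some further probes. These 84 had control levels from -8.75 to 4.23, with 44.0% of them above the 75th percentile, against 24.7% of all probes. All probes include those ending in ms, so the percentages rest on unlike sets. Only 6 clusters held more than 1 member. Cluster FJU.146 held the most, 3 of its 7 probes.

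The members gave a large part of the signal on every array. Their share of the summed processed signal was 43.3% ± 4.74 (SD, n = 6) on control arrays and 41.6% ± 2.87 (SD, n = 4) on progesterone arrays. On controls 2, 4, 5, 7, 8 and 10 it was 42.3%, 45.0%, 50.7%, 44.1%, 36.5% and 40.9%, and on progesterone 4, 5, 7 and 8 it was 44.8%, 41.2%, 42.4% and 37.9%. The highest and the lowest share were both on control arrays, so the groups overlapped fully. The members were chosen on the controls, and this difference was therefore not tested.

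**Figure D1:**
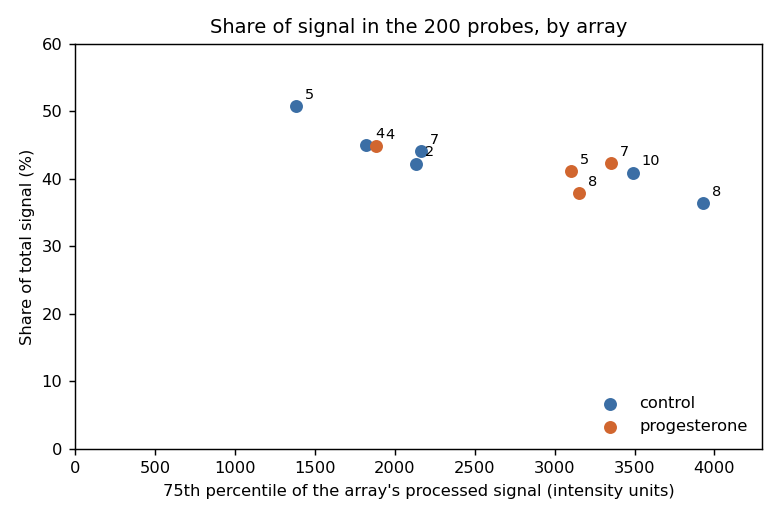
Share of the summed processed signal in the 200 members, in percent (vertical axis), against the array's 75th percentile of processed signal in intensity units (horizontal axis), 1 point per array, coloured by group and marked with its title number. The 5 arrays with the lowest 75th percentile had shares from 42.3% to 50.7% and the other 5 had shares from 36.5% to 42.4%.

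The share moved with the brightness of the array. The plot of shares by array brightness shows control 5, the dimmest array by its 75th percentile (1382), with the highest share, and control 8, the brightest (3927), with the lowest. The summed signal of the members varied less between arrays than that of the other probes. It ranged 1.64-fold over the 10 arrays, while that of the other probes together ranged 2.70-fold. In each array's own order the range over the 10 arrays was 1.27-fold at place 1, 1.48-fold at place 10 and 1.63-fold at place 50. It was 2.07-fold at place 100, 2.30-fold at place 200 and 3.03-fold at place 1000. The rise was not steady, with 1.24-fold at place 2, and the range was 2.81-fold at place 4000.

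**Figure D2:**
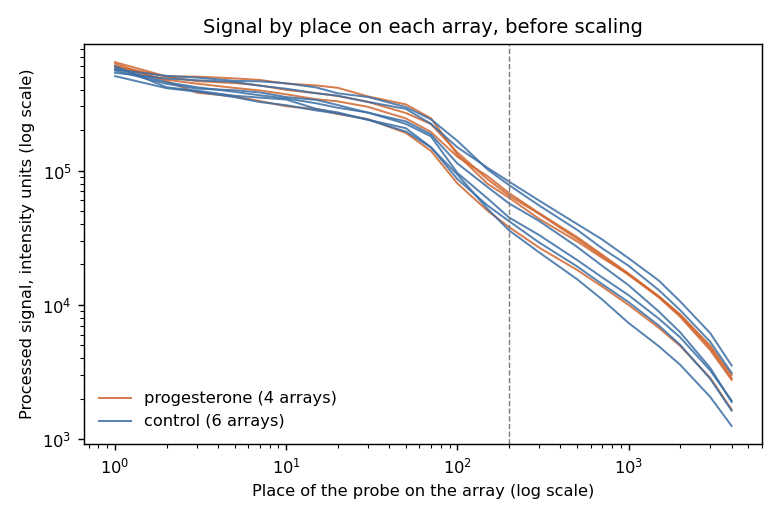
Processed signal in intensity units (vertical axis, log scale) of the probe at each place of an array's own order from brightest to dimmest (horizontal axis, log scale), 1 line per array before scaling, coloured by group, with place 200 dashed. The lines lie close together at the left, with a 1.27-fold range at place 1, and spread to a 3.03-fold range at place 1000.

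The brightest spots lay near the upper end of what the scanner read. The raw median signal of the brightest probe was 67.1% to 76.8% of the saturation value on control arrays and 78.3% to 83.7% on progesterone arrays, and 3 to 23 members per array exceeded 50% of that value. The groups did not overlap in this measure of a single probe, whose level relative to the 75th percentile did overlap, as given above. Its processed signal before scaling overlapped too, with control 5 at 599864 above progesterone 8 at 587125. The part of the scanner's range in the narrow spread of the brightest members was not tested.

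A test of the share is possible when each array chooses its own brightest probes. The 200 brightest probes of each array held 44.1% ± 4.94 (SD, n = 6) of its signal on controls and 42.5% ± 2.47 (SD, n = 4) with progesterone. The difference of -1.57 percentage points did not exceed the spread within groups (exact permutation test over 210 splits, two-sided, p = 0.629). Between samples of the same number the share with progesterone differed by -0.0642, -10.3, -1.63 and 2.53 points for numbers 4, 5, 7 and 8. It was lower in 3 of 4 pairs, and 10 of the 16 sign flips of these differences gave a mean as far from 0 as the -2.37 points measured, where the smallest exact permutation p that 4 pairs allow is 0.125. Control 5 carried most of this. Without it the difference over all arrays was 0.00791 points (exact permutation p = 0.984). Leaving out any other single array gave -2.97 points (without control 8) to -0.590 points (without progesterone 8). Within slide 1 the difference was 3.56 points, from 1 control array, and within slide 3 it was 0.0421 points, with no test at these sizes. On each array a single probe held 0.508% to 1.20% of the signal, the brightest 10 held 4.30% to 7.73% and the brightest 1000 held 66.8% to 76.1%.

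Most members were among the 200 brightest probes of each array, and the top of the list was the steadiest in rank. The number of members in an array's own 200 was 173, 183, 170, 180, 178 and 181 on controls 2, 4, 5, 7, 8 and 10, and 179, 179, 169 and 179 on progesterone 4, 5, 7 and 8. Groups overlapped, with the lowest value on progesterone 7 and the next on control 5. In all 10 arrays, 128 members stayed within the own 200, another 25 did so in 9 arrays and 20 in 5 or fewer. The own lists of the 10 arrays together named 324 probes. Of the 124 that are not members, 73 appeared on 1 array only, and none was in the own 200 of all 4 progesterone arrays or of all 6 controls.

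**Figure D3:**
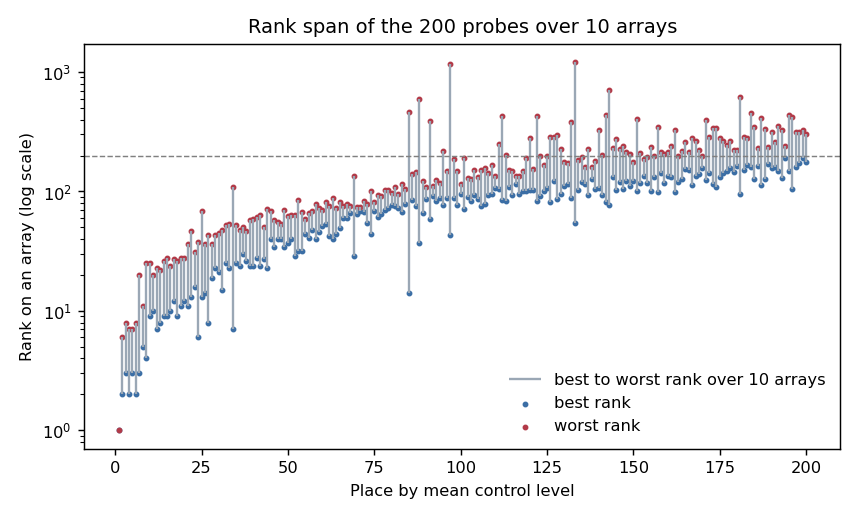
Best and worst rank over the 10 arrays (vertical axis, log scale) of each of the 200 members, ordered by mean control level (horizontal axis, place 1 the brightest), joined by a line, with rank 200 dashed. All members in places 1 to 50 stayed at rank 110 or better, and 5 members further down fell below rank 500 on at least 1 array.

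The order loosened down the list. All members in places 1 to 50 were in the own 200 of all 10 arrays, as were 45 of 50 in places 51 to 100, 28 of 50 in places 101 to 150 and 5 of 50 in places 151 to 200. The median distance between a member's best and worst rank was 5.5 in places 1 to 10, 24 in places 11 to 50, 31 in places 51 to 100, 89.5 in places 101 to 150 and 127 in places 151 to 200. The plot of rank spans shows the same widening, with single members far outside their neighbours. A member near place 200 leaves the list with a small change of level, so the last counts describe the boundary as much as the members. A given change of level also moves a rank further where levels lie close together. Levels ran from 7.90 down to 7.20 in places 1 to 10 and from 4.85 down to 4.41 in places 151 to 200. The widening went on below the list, to a median distance of 285 in places 201 to 400. UF_Ppr_AF_114935, UF_Ppr_AF_101821, UF_Ppr_AF_117309 and UF_Ppr_AF_106489, in places 188 to 198, were in the own 200 of only 2 arrays each.

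Ranks within the 200 were alike between arrays. Over the 45 pairs of arrays Spearman's rho across the 200 members was 0.786 to 0.958 with a mean of 0.888. Each rho is taken across probes, so its points are not replicates, and pairs share arrays. The 4 pairs of the same number lay at 0.914 to 0.958. The mean was 0.872 over the 15 control pairs, 0.907 over the 6 progesterone pairs and 0.885 over the 20 pairs that differ in both group and number. For places 201 to 400 the mean rho was 0.283, over a narrower span of control levels, 4.40 to 3.61. Across all probes well above background on at least 4 arrays, a set that also spans lower levels, it was 0.919 to 0.983. The mean there was 0.952, higher than for the members.

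The choice of members acts on the control arrays, so each control was also read against a list made without it. The lists made without 1 control shared 194 to 197 of their 200 probes with the members. Of such a list, 169, 180, 164, 178, 176 and 178 probes were in the own 200 of controls 2, 4, 5, 7, 8 and 10, a mean of 174 ± 6.27 (SD, n = 6). The progesterone arrays, read against the same 6 lists, gave means of 179.7, 180, 168.2 and 178.7 for numbers 4, 5, 7 and 8, or 176.6 ± 5.67 (SD, n = 4). Over the single lists the progesterone arrays held 167 to 183 of the 200, and the groups overlapped. The median level over the held-out list was 5.58 ± 0.25 (SD, n = 6) on controls and 5.33 ± 0.11 (SD, n = 4) with progesterone. Controls 8 and 7 lay within the progesterone range of 5.23 to 5.46 and controls 2, 4, 5 and 10 above it. No test was made of this difference, since the lists rest on control means.

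Between control explants the members, like the probes ranked below them to place 3000, varied less than probes in general. The median SD of the level over the 6 controls was 0.35 for the members and 0.59 for all 14096 probes that were well above background on at least 4 arrays. It was also 0.35 for places 201 to 400 and 401 to 1000, and 0.36 for places 1001 to 3000. Without scaling the median SD was 0.44 for the members and 0.65 for places 201 to 400. Of the members 168 had an SD under 0.5 and 6 (3.0%) had one over 1, against 16.0% of all probes tested. Which members looked steady depended on the scale. With levels relative to the 75th percentile, the median SD was 0.43 in places 1 to 10 and 0.31 in places 151 to 200. In log2 signal without scaling the order was turned, with 0.18 and 0.58.

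The 3 steadiest members by level were UF_Ppr_AF_101080 (4.56 ± 0.085), UF_Ppr_AF_103454 (4.58 ± 0.10) and UF_Ppr_AF_111440 (4.75 ± 0.10; each SD, n = 6). Without scaling each had an SD of 0.54, so they moved together with the 75th percentile of the array. UF_Ppr_AF_101080 had a control level of 4.40 at the lowest, 4.58 at the median and 4.63 at the highest, and with progesterone 4.55, 4.60, 4.37 and 4.59 for numbers 4, 5, 7 and 8. Its groups overlapped, with progesterone 7 and control 10 the lowest. UF_Ppr_AF_103454 was less steady outside the controls, at 4.21, 4.87, 3.98 and 4.55 for the same progesterone arrays.

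The most variable member was UF_Ppr_AF_117252, for contig FJU.2534.C2, at place 133. Its control level was 2.73 at the lowest, 5.05 at the median and 6.69 at the highest (SD 1.52, n = 6), and with progesterone it was 3.29, 2.85, 3.68 and 2.19 for numbers 4, 5, 7 and 8. Controls 2 and 5 were the highest, at 6.69 and 6.54, and control 4 lay among the progesterone arrays. Its rank ran from 54 on control 2 to 1204 on progesterone 8, and before scaling its signal varied 18.3-fold over the 10 arrays.

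UF_Ppr_AF_101196, for contig FJU_SB_30.26.C1, had control levels of 3.18 at the lowest, 5.67 at the median and 7.26 at the highest (SD 1.42, n = 6). With progesterone it was 2.21, 5.47, 6.05 and 5.14 for numbers 4, 5, 7 and 8. It was lowest on progesterone 4 and control 2 and highest on control 5, with the other arrays of both groups between 4.85 and 6.53. Its rank fell to 1168 on progesterone 4 and its unscaled signal varied 25.4-fold. Probe UF_Ppr_AF_118035, named after its values were seen, had the same 3 arrays at its ends. It was at 3.07 on progesterone 4, 4.26 on control 2 and 7.33 on control 5.

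UF_Ppr_AF_104743, for contig FJU.822.C1, was set apart by a title number. Its control level was 3.44 at the lowest, 5.72 at the median and 7.30 at the highest (SD 1.42, n = 6), and with progesterone it was 5.54, 5.62, 3.25 and 5.41 for numbers 4, 5, 7 and 8. Both arrays of number 7 were low, 3.44 in the control and 3.25 with progesterone, and every other array of either group lay at 5.41 or above. The plot of single probes by array shows this beside the members above.

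**Figure D4:**
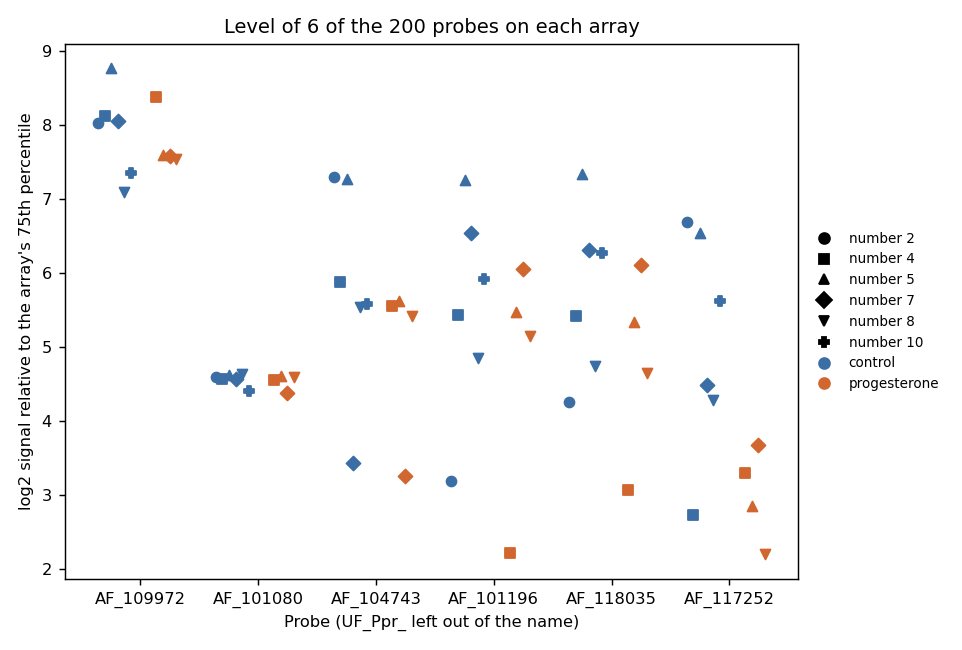
Level (log2 signal relative to the array's 75th percentile, vertical axis) of 6 of the 200 members (horizontal axis) on each array, 1 point per array, coloured by group with a marker for each title number. UF_Ppr_AF_109972 is the brightest and UF_Ppr_AF_101080 the steadiest (control SD 0.085), and UF_Ppr_AF_104743 is low on both number 7 arrays, at 3.44 and 3.25.

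Differences between numbers were fitted over all probes in the 8 arrays of numbers 4, 5, 7 and 8, with number and treatment as terms in limma. At an adjusted p under 0.05 (Benjamini-Hochberg) 0 of 200 members passed, where 2.87% of all probes tested did. Unadjusted, 11 members (5.5%) passed, against 17.7% of all probes tested. The lowest adjusted p among members was that of UF_Ppr_AF_104743, 0.0503 in limma. It lay under the threshold at 0.00557 without scaling, 0.0243 with quantile normalisation and, in the authors' values, 0.0161, while with normexp background correction no probe passed. This fit, and the attention to this probe, came after its values were seen.

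The comparison of progesterone with control asks whether the hormone changed transcript levels within 12 h. No member passed the test. In limma with Benjamini-Hochberg adjustment 0 of the 200 members and 0.0% of the 14096 probes tested had an adjusted p under 0.05. The lowest was 0.9997. Before adjustment 4 members had a p under 0.05, all lower with progesterone, against 1.22% of all probes tested (0.837% higher and 0.383% lower). That count was 9 without control 8, where 2.75% of all probes passed, 2 without control 2 (0.80% of all probes) and 2 without progesterone 7 (0.73%). A limma fit on all arrays whose variance followed the mean level (variance trend) also gave 9 members (4.5%), all lower. In that fit 1.27% of all probes passed before adjustment, and none after it. With samples paired by their number in limma, as a block, 0 members and 0 of all probes tested passed after adjustment. Before adjustment 1 member passed, against 1.93% of all probes. The median member difference was then -0.20, against -0.010 for all probes. The rule used the control means of this same contrast, so nothing is read from the members' counts.

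Most members had a lower mean level with progesterone, in a scaling where probes around them did too. Of the 200, 180 were lower, against 44.9% of all probes tested, and 157 of the 200 probes in places 201 to 400 were lower as well. The median difference was -0.18 for the members, with quartiles at -0.29 and -0.10, and -0.15 for places 201 to 400, against 0.039 for all probes tested. The members were chosen for high control means, and the part of that choice in these differences was not tested. The median level on controls was 5.58 over the members, and also 5.58 over the lists made without the control that was read. When the list was chosen on the 4 progesterone arrays instead, 164 of its 200 probes were lower with progesterone, with a median of -0.15. That list shared 183 probes with the members.

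The direction depended on the scaling. Without any scaling the median member difference was 0.092 and 57 of 200 were lower. With quantile normalisation it was 0.0084 with 96 lower, with normexp background correction -0.035 with 117 lower, and with the authors' values 0.15 with 45 lower. Leaving out scaling moved the median of all probes tested to 0.31, and normexp moved it to -0.35. Relative to the median of all probes, the members lay at -0.21 with 75th percentile scaling. That scaling shifts all probes of an array alike, so without it the value is the same by construction. The value was -0.018 with quantile normalisation, 0.31 with normexp and 0.13 in the authors' table. The plot of differences by scaling shows these shifts. No direction is therefore given for the members as a group. The slides gave no common direction either, with a median of 0.18 within slide 1, from 1 control array, and -0.18 within slide 3.

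**Figure D5:**
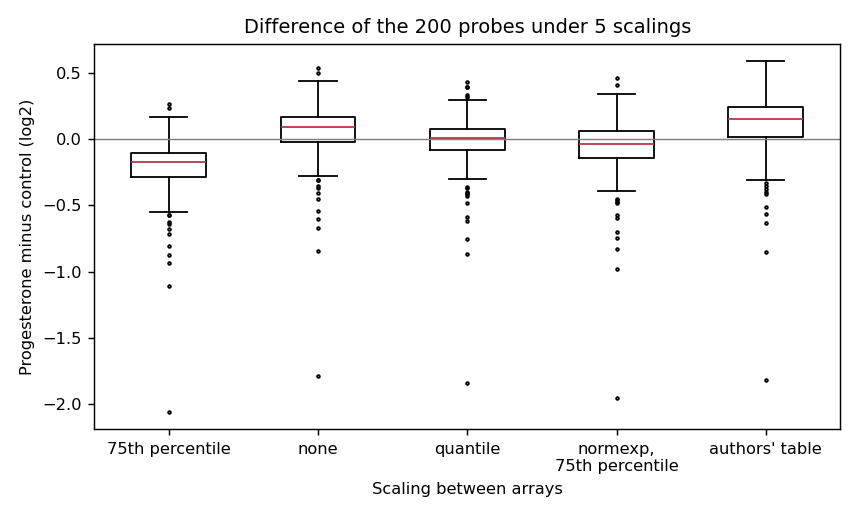
Progesterone minus control difference of the 200 members on the log2 scale (vertical axis) under 5 ways of scaling the arrays (horizontal axis), with boxes from the lower to the upper quartile, a line at the median, whiskers to the last value within 1.5 box lengths and dots beyond. The median is -0.18 with 75th percentile scaling, 0.092 without scaling, 0.0084 with quantile normalisation, -0.035 with normexp and 0.15 in the authors' table.

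The precision for bright probes was better than average, in places 201 to 400 as well as in the members. The median standard error of a member's difference was 0.24 and the median half-width of its 95% confidence interval was 0.53. These were 0.25 and 0.54 for places 201 to 400, and 0.34 and 0.75 for all probes tested. The interval left out a 2-fold change in either direction for 169 members (84.5%). It did so for 73.5% of places 201 to 400 and 52.2% of all probes tested. For the other members a change of that size lay within the interval. The members were chosen on the control means of this same contrast, so no absence of 2-fold changes is read from their count. The intervals also hold for the main scaling only. The median member difference was -0.18 there and 0.15 in the authors' table. The members' median control SD was 0.35 there and 0.48 with normexp. Intervals under the other scalings are not given. With the title number as a block in limma, the median standard error was 0.24 for the members and 0.27 for all probes tested. The brightest probe, UF_Ppr_AF_109972, differed by -0.13 ± 0.34 (SE), with an interval from -0.86 to 0.61.

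The smallest unadjusted p among members belonged to UF_Ppr_AF_117252, whose level on each array is given above. Its difference was -2.06 ± 0.71 (SE; limma, unadjusted p = 0.0144, adjusted p = 0.9997), and its groups overlapped through control 4. Without controls 2 and 5, the highest, the difference was -1.28. With the title number as a block in limma it was -1.51. UF_Ppr_AF_116609, for contig FJU.475.C1, was next. Its control level was 4.58 at the lowest, 4.86 at the median and 5.37 at the highest, and with progesterone it was 4.41, 4.26, 4.19 and 4.55 for numbers 4, 5, 7 and 8. Every progesterone array lay below every control. The difference was -0.58 ± 0.22 (SE; limma, unadjusted p = 0.025, adjusted p = 0.9997). It was smaller under other scalings, at -0.31 without scaling, -0.40 with quantile normalisation, -0.46 with normexp and -0.31 in the authors' table. Within slide 1, from 1 control array, it was -0.17.

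Groups that did not overlap were found for 2 members, both lower with progesterone, and for 0 members in the higher direction, against 0.121% of all probes tested in each direction. Beside UF_Ppr_AF_116609 this was UF_Ppr_AF_115307, for contig FJU.4440.C2, named after its values were seen. Its control level was 4.50 at the lowest, 4.70 at the median and 5.02 at the highest, and with progesterone it was 4.19, 4.40, 3.91 and 4.50 for numbers 4, 5, 7 and 8. The highest progesterone array, number 8, lay barely below the lowest control, number 10. Its difference was -0.49 ± 0.20 (SE; limma, unadjusted p = 0.032, adjusted p = 0.9997). Under other scalings it was -0.22 without scaling, -0.29 with quantile normalisation, -0.38 with normexp and -0.23 in the authors' table. The counts of groups that did not overlap are for 75th percentile scaling, and overlap under the other scalings was not tested.

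Among members with a higher mean with progesterone, UF_Ppr_AF_117187, for contig FJU.1103.C2, had the smallest p. Its control level was 5.23 at the lowest, 5.50 at the median and 5.72 at the highest, and with progesterone it was 6.06, 5.60, 6.02 and 5.42 for numbers 4, 5, 7 and 8. Progesterone 4 and 7 lay above all controls and 5 and 8 among them. The difference of 0.27 ± 0.21 (SE) did not pass (limma, unadjusted p = 0.229). It was larger under other scalings, at 0.54 without scaling, 0.43 with quantile normalisation, 0.46 with normexp and 0.59 in the authors' table. UF_Ppr_AF_112102, for contig FJU.3910.C1, followed with 0.23 ± 0.26 (SE; limma, unadjusted p = 0.394). It had control levels of 4.05 at the lowest, 4.88 at the median and 5.05 at the highest, with control 5 far below the other controls, and 5.30, 4.81, 5.34 and 4.55 with progesterone. Its difference was 0.50 without scaling, 0.39 with quantile normalisation, 0.41 with normexp and 0.51 in the authors' table. Neither probe passed after adjustment under any of these scalings.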

How the data were processed

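One-colour Agilent arrays of 10 testis explant samples were analysed. The intensity values deposited by the authors were written by Feature Extraction 10.7.1.1, per the file headers, which subtracted background and corrected spatial trends within an array. The authors' log2 value table of the same arrays served as an alternative, and its scaling between arrays is not stated in the labels or the file. It was matched to the arrays by spot number, its column medians were 8.16 to 8.25, and its centring was not settled. The flags for signal well above background, saturation and uneven spots, which hold 0 or 1 and have no other unit, are deposited by the authors' scanner software, per the file headers.

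From these files the 536 control spots were dropped, and log2 processed signal minus each array's 75th percentile was computed for 15208 probes (1 spot each, so no averaging). Members and lists were chosen with earlier results of these data known. limma 3.58.1 (lmFit, eBayes, two-sided) in R 4.3.3 was fitted to the 14096 probes well above background on at least 4 arrays, with Benjamini-Hochberg adjustment over all of them. The treatment fit was also run on simulated data drawn independently for each probe and array, without shared shifts between arrays. That run does not bear on the results here. Shares of signal were compared by an exact permutation over all 210 splits, whose smallest p is 0.00476. Samples of the same title number deviated together, with correlations of 0.312 to 0.574 over all probes between control and progesterone for numbers 4, 5, 7 and 8. Pairs of unlike number gave -0.242 to -0.0361. Deviations are taken from a mean over arrays, which by itself pushes unlike pairs below 0, so these are no independent contrast. Both arrays of number 7 lay on slide 3 and both of number 8 on slide 1, while those of numbers 4 and 5 lay on different slides. The main limma fit and the permutation over 210 splits did not use the pairs of the same number. Differences, SEs, intervals and p-values of named probes are from that unpaired fit unless another is named. For some results a limma fit with the number as a block is given beside it. Probes named in the text are the 10 with the highest control mean, 3 on each side of the 200th place, 2 higher and 2 lower by smallest unadjusted p, and 3 each with the largest SD, the smallest SD and the fewest arrays in whose own 200 they lay. All members with another probe for the same contig are also named, outside these rules. Any others are said to be chosen after their values were seen. The number of arrays limits the precision. Alternatives were other scalings, background correction (normexp, offset 50), filters, blocks, a variance trend in limma, list sizes and single arrays left out.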

Additional observations from a re-analysis of the deposited data

Results flagged for a closer look

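Of 66 combinations of a group with an array measure or a named probe, 7 had a sample far from the rest of its group. The cutoff flags about 1 in 20 by chance among independent groups not chosen by their values. Of the 66, 56 were of named probes, some chosen for their spread or difference in these data. The 7 can therefore not be set against that rate. On progesterone 4 the 75th percentile of processed signal was 1882, against 3100 to 3350 on the other progesterone arrays. Progesterone 7 held 169 of the members in its own 200, against 179 on each of the other 3 arrays.

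UF_Ppr_AF_109972, the brightest probe, had a level of 8.37 on progesterone 4, far above the other progesterone arrays, on the array that also had the lowest 75th percentile of its group. UF_Ppr_AF_104743 was at 3.25 on progesterone 7, and control 7 was low as well, at 3.44. UF_Ppr_AF_114935 was at 4.20 on progesterone 7 and at 4.33 to 4.35 on the other 3. Among controls, UF_Ppr_AF_112102 was at 4.05 on control 5 and UF_Ppr_AF_101080 at 4.40 on control 10, the latter in a group with an SD of 0.085.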

How the results depend on the processing

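No alternative gave a member, or any other probe tested, at an adjusted p under 0.05 for progesterone against control. The lowest adjusted p over the 25 alternatives ran from 0.7328 (within slide 1) to 1 in limma, and 0 to 9 members passed before adjustment, where 0.61% to 6.73% of all probes did. The 0 was without controls 2 and 5, where 1.85% of all probes passed. The members' median difference of -0.18 turned in sign with quantile normalisation (0.00838), the authors' table (0.15) and no scaling (0.092). It also turned with normexp with quantile normalisation (0.012) and within slide 1 (0.18, from 1 control array). It kept its sign without any single array (-0.26 to -0.12), with the title number as a replicate block (-0.20, 0 called), without controls 2 and 5 (-0.065) and with slide as a fixed block, where it shrank to -0.051 with 129 of 200 lower. Within slide 1 the differences of UF_Ppr_AF_117187 (-0.21) and UF_Ppr_AF_112102 (-0.14) also turned. The difference in the share of each array's own 200 brightest probes, -1.57 points, was 0.996 with normexp (exact permutation p = 0.81), 2.52 in the authors' table (exact permutation p = 0.171), 3.56 within slide 1, 0.0421 within slide 3, -2.37 over pairs of the same number and -2.97 to 0.00791 without single arrays. Lists of 100 probes and 500 probes held 33.1% and 57.8% of control signal. Quantile normalisation lowered the members' median control SD to 0.20, against 0.32 for places 201 to 400. Normexp raised it to 0.48, against 0.49 for places 201 to 400. Between title numbers, 5 members (2.5%) passed without scaling, 1 (0.5%) with quantile normalisation and 1 (0.5%) in the authors' table, against 8.61%, 3.19% and 3.61% of all probes. All 200 members were chosen again with quantile normalisation and in the authors' table, 191 with normexp, and 194 on all 10 arrays. Of 84 control levels of named probes under other inputs, 75 moved by less than the SD between controls. The cause of these shifts was not tested. Averaging spots in another way was not run, since each probe has 1 spot. The settings added to the plan (no scaling, normexp with quantile normalisation, slide as random block, within slides, without controls 2 and 5), and the fit of title numbers, were chosen after seeing the data.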
